A study of Homo sapiens with 6 samples.

Results

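The genes described are 34 human genes of DNA repair, chosen by name: PARP1 and its partners in single-strand break repair, the end-joining genes, and genes of mismatch, base excision and nucleotide excision repair. All 34 are among the 21462 genes counted, and each had a count in all 6 libraries. The libraries come from an established line of oral squamous carcinoma cells, HO-1-N-1, transfected by means of the reagent HilyMax with either an siRNA against Sam68 (libraries 1, 2 and 3) or with a control siRNA (libraries 1, 3 and 5), and hold their poly(A) RNA. No source used here gives the siRNA sequences or the time between transfection and harvest, nor whether each library was a culture of its own. The p-values therefore measure the spread between libraries, and that spread may be technical. Sam68, the product of KHDRBS1, binds RNA and is known for roles in splicing and signalling. The comparison asks which transcripts differ in level when it is knocked down. In bulk RNA, fewer cells of a kind and less RNA per cell cannot be told apart.

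Cells repair DNA by routes that divide the work by the kind of lesion. In single-strand break repair, PARP1 binds the break and builds poly(ADP-ribose) chains that recruit the scaffold XRCC1 and the ligase LIG3. Base excision repair begins with a glycosylase that removes a damaged base, after which APEX1 cuts the backbone and POLB fills the gap. Mismatch repair recognises replication errors through the MSH proteins and nicks the new strand through the PMS proteins. Nucleotide excision repair cuts out a stretch around a bulky lesion, and end joining holds and ligates the ends of a double-strand break.

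The libraries held between 16099488 and 17336651 counts. KHDRBS1 stood at 26.4, 31.0 and 28.8 CPM (counts per 1e6 of the scaled library) in Sam68 siRNA libraries 1, 2 and 3, against 227, 205 and 184 CPM in controls 1, 3 and 5, a log2 fold change of -2.84 (SE 0.09, adjusted p = 1.56e-08, edgeR). Control replicate 5 stood apart from the other libraries. Mitochondrial transcripts took 2.27% of its counts, while they took 0.300% to 0.671% in the Sam68 siRNA libraries and 0.158% and 0.216% in controls 1 and 3. A list of 24 proliferation genes summed to 2914, 2884 and 2837 CPM in Sam68 siRNA libraries 1, 2 and 3, against 2386, 2468 and 1987 CPM in controls 1, 3 and 5, and 13 of the 24 rose and 0 fell. Epithelial markers (4 genes) summed to between 4019 and 4333 CPM with the Sam68 siRNA and to between 4374 and 4489 CPM in the controls. The 6 squamous markers summed to between 5544 and 5773 CPM with the Sam68 siRNA and to between 4989.5 and 5514 CPM in the controls. Lists of 6 fibroblast, 5 leukocyte and 4 endothelial markers summed to at most 5.21, 4.91 and 3.15 CPM with the Sam68 siRNA and to at most 9.07, 4.01 and 3.76 CPM in the controls, with PDGFRA and KDR at 0 in every library.

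Of the 34 repair genes 4 rose (PARP1, MSH6, APEX1 and DDB2), 3 fell (TDG, LIG4 and ERCC4) and 27 were not called, at an adjusted p below 0.05 in edgeR's quasi-likelihood test over 12351 genes. That is 20.6% called, where 19.1% of all tested genes were called, so the share lies near the background. The share that rose was 11.8%, where 9.33% of all tested genes rose, and the share that fell was 8.82%, where 9.76% of all tested genes fell. An unadjusted p below 0.05 by edgeR was found for 14 of the 34 (41.2%), where 33.1% of all tested genes had one. The median log2 fold change of the 34 was 0.02, beside -0.00 over all tested genes, and 18 lay above 0 and 16 below.

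The calls rest on small differences, and a gene not called is not shown to be unchanged. The log2 fold change of every repair gene but TDG lay within 0.5 of 0. By limma-trend on log2(TPM + 1), 0 of the 34 rose and 1, TDG, fell, where 868 of 11828 tested genes rose and 835 fell. By DESeq2 5 rose (the same 4 and UNG) and 1, TDG, fell, where 1047 of 11756 tested genes rose and 1056 fell. The authors' deposited comparison, whose test is not named, gives 6 of the 34 an FDR below 0.05, and 5 of these were called here. The 5 are PARP1 (FDR 0.00938), MSH6 (0.00149), APEX1 (0.0293), DDB2 (0.01) and TDG (9.04e-08), and the other is UNG (0.0237). The share over all genes in that comparison was not computed. In 9 genes every Sam68 siRNA library lay above every control and in 7 below, 47.1% together, where the groups did not overlap in 38% of all tested genes (19.3% higher and 18.7% lower with the Sam68 siRNA).

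**Figure D1:**
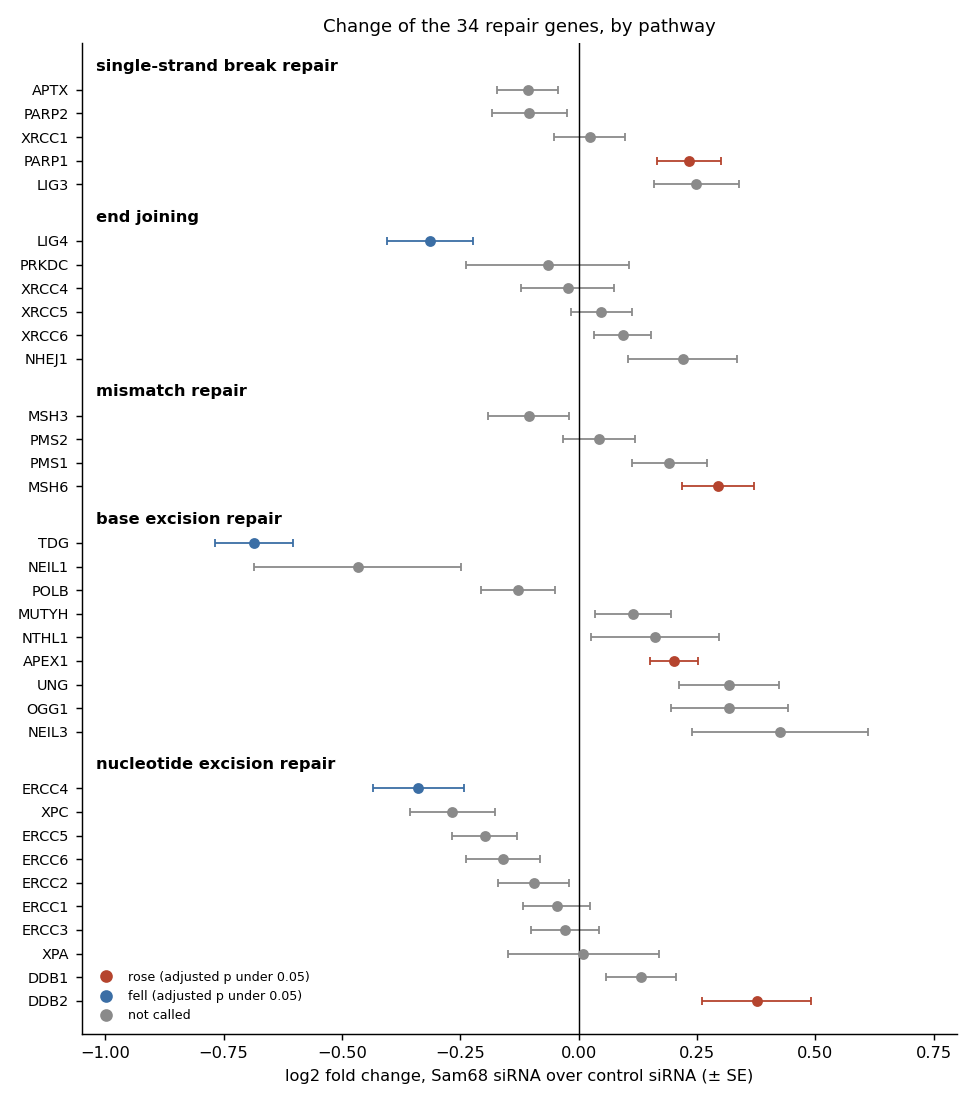
Log2 fold change (horizontal axis, Sam68 siRNA over control siRNA) of each of the 34 genes, grouped by pathway down the page; points are edgeR estimates, bars are ± SE, red marks genes that rose, blue genes that fell and grey genes not called. TDG, at -0.69, stands farthest from 0, and 7 of the 10 nucleotide excision repair genes lie below 0.

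By pathway, single-strand break repair had 1 rise among 5 genes (median log2 fold change 0.02), end joining 1 fall among 6 (median 0.01) and mismatch repair 1 rise among 4 (median 0.12). Base excision repair had 1 rise and 1 fall among 9 genes, with a median of 0.16 and 6 genes above 0. Nucleotide excision repair had 1 rise and 1 fall among 10 genes, with a median of -0.07 and 7 genes below 0. In 4 of these 10 (ERCC4, ERCC5, ERCC6 and XPC) the Sam68 siRNA libraries lay below all controls, and in 1, DDB2, above them. Over all tested genes 18.7% lay below without overlap and 19.3% above, and 9.33% rose and 9.76% fell. The difference between pathways was not tested.

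Promoters are printed for the 4 genes that rose and for TDG, the gene with the largest difference, to show what lies at their starts. RefSeq (GRCh38.p14) gave a promoter, 250 bases before to 50 after the start, for 31 of the 34 genes. The sequences run 5′ to 3′ on the gene's strand, and capitals mark CCAAT (the CCAAT box) and the E2F words TTTCCCGC and TTTGGCGC on either strand.
PARP1, chr1:226408044-226408343, minus strand: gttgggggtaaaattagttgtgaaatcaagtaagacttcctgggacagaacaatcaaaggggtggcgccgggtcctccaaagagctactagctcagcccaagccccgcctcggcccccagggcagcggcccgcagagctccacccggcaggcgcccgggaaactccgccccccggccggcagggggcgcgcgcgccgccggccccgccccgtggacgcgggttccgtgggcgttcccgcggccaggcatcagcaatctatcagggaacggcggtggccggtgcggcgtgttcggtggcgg
MSH6, chr2:47782895-47783194, plus strand: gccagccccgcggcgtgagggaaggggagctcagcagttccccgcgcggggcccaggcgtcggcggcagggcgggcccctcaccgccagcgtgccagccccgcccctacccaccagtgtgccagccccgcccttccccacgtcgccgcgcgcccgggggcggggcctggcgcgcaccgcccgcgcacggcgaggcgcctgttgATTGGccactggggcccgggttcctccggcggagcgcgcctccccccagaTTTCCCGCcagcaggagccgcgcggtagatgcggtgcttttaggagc
APEX1, chr14:20454976-20455275, plus strand: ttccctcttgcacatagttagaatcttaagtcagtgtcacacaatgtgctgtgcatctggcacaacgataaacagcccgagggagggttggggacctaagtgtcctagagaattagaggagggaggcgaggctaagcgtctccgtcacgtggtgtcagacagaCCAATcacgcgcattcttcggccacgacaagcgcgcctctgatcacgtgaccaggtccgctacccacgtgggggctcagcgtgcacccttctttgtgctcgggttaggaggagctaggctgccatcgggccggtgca
DDB2, chr11:47214204-47214503, plus strand: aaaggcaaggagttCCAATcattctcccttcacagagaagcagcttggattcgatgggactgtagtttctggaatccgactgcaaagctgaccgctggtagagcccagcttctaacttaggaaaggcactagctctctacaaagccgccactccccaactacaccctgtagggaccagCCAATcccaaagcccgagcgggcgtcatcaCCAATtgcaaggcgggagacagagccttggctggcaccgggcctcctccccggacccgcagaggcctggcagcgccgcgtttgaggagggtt
TDG, chr12:103965622-103965921, plus strand: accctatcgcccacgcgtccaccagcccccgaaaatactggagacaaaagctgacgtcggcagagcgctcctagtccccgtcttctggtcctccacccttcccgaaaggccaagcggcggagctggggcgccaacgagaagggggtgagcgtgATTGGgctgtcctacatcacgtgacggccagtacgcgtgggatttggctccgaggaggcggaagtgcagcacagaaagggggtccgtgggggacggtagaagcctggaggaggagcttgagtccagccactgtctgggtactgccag
CCAAT lay in the window of 14 of the 31 genes, where 36.8% of the promoters of tested genes held it. Among them were 3 of the 4 genes that rose and 1 of the 3 that fell, TDG, which had it on the opposite strand 97 bases before the start. MSH6 had it on the opposite strand 47 bases before the start, APEX1 on its own strand 87 bases before, and DDB2 at 3 places. An E2F word lay in 4 of the 31 (MSH6, MSH3, XPC and XRCC6), where 3.70% of the promoters of tested genes held one, and of these MSH6 alone rose. In MSH6 the word began 3 bases after the start. The PARP1 window held neither.

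Earlier results of these data had singled out the heptamers ACTGATT and GCAGTAC in transcripts, so their place in the repair genes is given as a description. ACTGATT lay in the 3′ UTR of 2 of the 34 genes (5.88%, where 13.8% of tested genes had it), ERCC4 and OGG1. In the coding sequence it lay in 8 of the 34 (23.5%): ERCC4 and LIG4, which fell, and 6 of the 27 not called. The share of coding sequences with it over all tested genes was not computed. TDG, which also fell, held it in neither region. None of the 4 genes that rose held either heptamer in these regions. GCAGTAC lay in the 3′ UTR of 0 of the 34, where 4.68% of tested genes had it, and in the coding sequence of PRKDC and ERCC2. The sites of ERCC4, OGG1 and LIG4 follow with 11 bases on either side, as DNA letters of the mRNA strand of GENCODE 29 transcripts on hg38, with the heptamer in capitals.
ERCC4, 3′ UTR, exon 11, chr16:13952127-13952133, plus strand: agtgagacataACTGATTtatatgaattt
ERCC4, coding, exon 8, chr16:13935153-13935159, plus strand: ccaggtcaagtACTGATTtgtgcaagtga
OGG1, 3′ UTR, exon 7, chr3:9766655-9766661, plus strand: aactaaagttaACTGATTaaagaggattt
LIG4, coding, exon 2, chr13:108208580-108208586, minus strand: aaagttgggtaACTGATTcaatagacaag
The 3′ UTR site of ERCC4 begins at base 3780 of a UTR of 3998 bases, and that of OGG1 at base 520 of 602.

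Of all 34 genes, TDG differed most. It encodes thymine DNA glycosylase, which removes thymine or uracil paired with guanine and also the oxidised forms of methylcytosine that arise in DNA demethylation. TDG (ENSG00000139372, chr12:103965822-103988874 on the plus strand of hg38) stood at 25.6, 27.6 and 25.6 CPM in Sam68 siRNA libraries 1, 2 and 3, against 42.6, 38.8 and 45.4 CPM in controls 1, 3 and 5. Every Sam68 siRNA library lay far below the lowest control. The mean was 26.3 ± 1.17 CPM with the Sam68 siRNA and 42.3 ± 3.35 CPM in the controls (SD, n = 3 each), 62.2% of the control level, a log2 fold change of -0.69 (SE 0.08, adjusted p = 0.000305, edgeR). The fall was called with each library left out in turn (adjusted p from 5.69e-05 to 0.00381, edgeR) and under the other 8 settings tried. The authors' deposited table gives TDG a log2 fold change of -0.68 and an FDR of 9.04e-08. GENCODE annotates a processed pseudogene, TDGP1, that is not among the counted genes, so reads that it shares with TDG cannot be told apart.

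None of the other glycosylases of base excision repair was called. UNG, which removes uracil, stood at 65.9, 69.7 and 62.6 CPM with the Sam68 siRNA, against 57.7, 58.0 and 43.3 CPM in the controls. The groups did not overlap, and control replicate 5 was the lowest library. The log2 fold change was 0.32 (SE 0.11, adjusted p = 0.058, edgeR) and 0.19 without control replicate 5. UNG was called by DESeq2 (adjusted p = 0.0278), and by edgeR without a filter on low counts (adjusted p = 0.0479), and its adjusted p over all alternatives reached 0.317. The authors' deposited table gives it an FDR of 0.0237. OGG1, which removes oxidised guanine, stood at 12.1, 10.0 and 10.4 CPM with the Sam68 siRNA, against 9.68, 8.53 and 7.87 CPM in the controls, again without overlap (log2 fold change 0.32, adjusted p = 0.0946, edgeR). TADA3, a gene on the other strand with 515% as many counts, overlaps OGG1. Since no source used here says whether strand was used in counting, OGG1 and the other overlapped genes named here are uncertain.

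NTHL1, for oxidised pyrimidines, and MUTYH, for adenine opposite oxidised guanine, had overlapping groups, at log2 fold changes of 0.16 and 0.11. NEIL1 and NEIL3, which act on oxidised bases, were the lowest of the glycosylases per length. NEIL1 averaged 2.64 TPM (transcripts per 1e6, scaled to length) with the Sam68 siRNA and 3.61 TPM in the controls, and NEIL3 averaged 5.13 TPM with the Sam68 siRNA and 3.82 TPM in the controls. NEIL3 stood at 4.58, 5.33 and 5.39 CPM with the Sam68 siRNA, against 4.75, 3.67 and 2.96 CPM in the controls. NEIL1 stood at 4.34, 4.17 and 4.12 CPM with the Sam68 siRNA, against 5.55, 4.03 and 7.94 CPM in the controls. The groups of both genes overlapped, with control replicate 5 the lowest library for NEIL3 and the highest for NEIL1. Leaving out control replicate 1 gave a call to NEIL3 (adjusted p = 0.0438, edgeR) and to NTHL1 (adjusted p = 0.0303, edgeR), and leaving out control replicate 3 gave one to NEIL1 (adjusted p = 0.0391, edgeR). With other libraries left out the adjusted p by edgeR reached 0.312 for NEIL3, 0.775 for NTHL1 and 0.506 for NEIL1. NEIL1 is overlapped by MAN2C1 on the other strand, with 379% as many counts.

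APEX1 is the endonuclease that cuts beside the site a glycosylase leaves empty. It (ENSG00000100823, chr14:20455191-20457772, plus strand) stood at 148, 156 and 152 CPM in Sam68 siRNA libraries 1, 2 and 3, against 134, 132 and 130.4 CPM in controls 1, 3 and 5. The groups were separate, with little spread inside each. APEX1 rose, with a log2 fold change of 0.20 (SE 0.05, adjusted p = 0.017, edgeR), to a level 15% above the controls. The call was lost without Sam68 siRNA replicate 2 (adjusted p = 0.0979, edgeR), Sam68 siRNA replicate 3 (0.0817) or control replicate 3 (0.0573). PIP4P1 on the other strand overlaps 54 bases of APEX1 and has 17.4% as many counts. POLB, the polymerase that fills the gap, was not called (30.9 ± 2.05 CPM with the Sam68 siRNA and 33.8 ± 1.02 CPM in the controls, SD, n = 3 each, log2 fold change -0.13).

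PARP1 is the main polymerase of poly(ADP-ribose) at DNA breaks. It (ENSG00000143799, chr1:226360691-226408093, minus strand) stood at 142, 145 and 136 CPM in Sam68 siRNA libraries 1, 2 and 3, against 129, 123 and 109 CPM in controls 1, 3 and 5. The groups did not overlap, and control replicate 5 was the lowest. PARP1 rose, with a log2 fold change of 0.23 (SE 0.07, adjusted p = 0.032, edgeR), to a level 17.5% above the controls. The call was kept without control replicate 1 and lost without any other library: leaving out Sam68 siRNA replicate 1, 2 or 3 gave an adjusted p by edgeR of 0.0884, 0.131 or 0.0733, and leaving out control 3 or 5 gave 0.0638 or 0.0666. The log2 fold change was 0.17 without control replicate 5. GENCODE annotates the pseudogenes PARP1P1 and PARP1P2, which are not among the counted genes.

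PARP2, a relative with the same activity, had overlapping groups, at 25.9, 27.6 and 25.3 CPM with the Sam68 siRNA, against 29.5, 28.6 and 26.6 CPM in the controls (log2 fold change -0.10). The scaffold XRCC1 averaged 27.9 ± 1.06 CPM with the Sam68 siRNA and 27.4 ± 0.114 CPM in the controls (SD, n = 3 each). LIG3, the ligase that XRCC1 carries, stood at 32.9, 27.6 and 28.8 CPM with the Sam68 siRNA, against 23.5, 25.2 and 26.3 CPM in the controls. Here the groups did not overlap, and LIG3 was not called (log2 fold change 0.25, adjusted p = 0.0725, edgeR). It was called under 1 of 14 alternatives, without control replicate 5 (adjusted p = 0.0394, edgeR), and without Sam68 siRNA replicate 1 its log2 fold change was 0.17 (adjusted p = 0.244, edgeR). RFFL on the other strand overlaps LIG3, has 91.4% as many counts and had a log2 fold change of 0.20, not called. APTX, which clears failed ligation intermediates, was lower in each Sam68 siRNA library than in any control and was not called (log2 fold change -0.11, adjusted p = 0.275, edgeR).

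In mismatch repair, MSH6 recognises single mispaired bases and small loops, and MSH3 larger loops. MSH6 (ENSG00000116062, chr2:47695530-47810101, plus strand) has its RefSeq start inside the span the files give. It stood at 69.3, 68.7 and 61.5 CPM in Sam68 siRNA libraries 1, 2 and 3, against 57.4, 54.6 and 50.6 CPM in controls 1, 3 and 5. Each Sam68 siRNA library lay above each control. MSH6 rose, with a log2 fold change of 0.29 (SE 0.08, adjusted p = 0.0195, edgeR), to a level 22.7% above the controls. The call was lost without Sam68 siRNA replicate 1 (adjusted p = 0.0715, edgeR), Sam68 siRNA replicate 2 (0.0912) or control replicate 3 (0.051). FBXO11 on the other strand overlaps the MSH6 span, has 61.1% as many counts and had a log2 fold change of 0.00. MSH3 was not called (32.9 ± 1.49 CPM with the Sam68 siRNA and 35.4 ± 3.40 CPM in the controls, SD, n = 3 each, log2 fold change -0.11). The level of MSH3 is uncertain.

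PMS2, the endonuclease subunit, had a log2 fold change of 0.04 (adjusted p = 0.74, edgeR). Its level is uncertain, because GENCODE annotates the pseudogene PMS2CL and several PMS2P copies, and none is among the counted genes. PMS1, a relative whose role in repair is less clear, lay above all controls in each Sam68 siRNA library and was not called. It averaged 25.6 ± 1.39 CPM with the Sam68 siRNA and 22.4 ± 0.410 CPM in the controls (SD, n = 3 each, log2 fold change 0.19, adjusted p = 0.112, edgeR). ORMDL1 on the other strand overlaps PMS1 and has 125% as many counts.

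**Figure D2:**
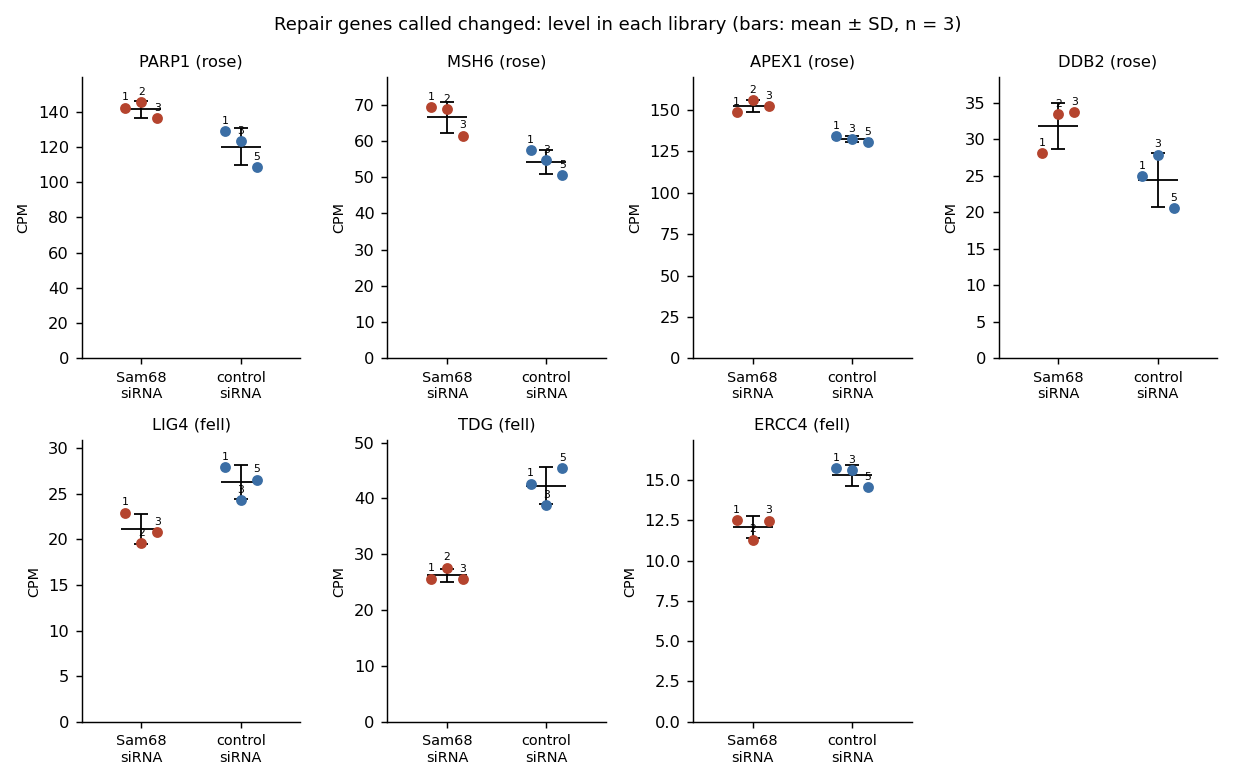
Level in CPM (vertical axis, from 0) of the 7 repair genes called changed in each of the 6 libraries, Sam68 siRNA on the left and control siRNA on the right; numbers beside points are replicate numbers, and black bars give mean ± SD (n = 3). The Sam68 siRNA libraries lie above all controls in PARP1, MSH6, APEX1 and DDB2 and below all controls in LIG4, TDG and ERCC4, and control replicate 5 is the lowest library in all 4 genes that rose.

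In nucleotide excision repair, damage is found by DDB2 with DDB1, by XPC or by a stalled polymerase. DDB2, which binds ultraviolet lesions (ENSG00000134574, chr11:47214465-47239240, plus strand), stood at 28.2, 33.5 and 33.7 CPM in Sam68 siRNA libraries 1, 2 and 3, against 25.0, 27.9 and 20.6 CPM in controls 1, 3 and 5. The groups nearly touched, with Sam68 siRNA replicate 1 close to control replicate 3. DDB2 rose, with a log2 fold change of 0.38 (SE 0.11, adjusted p = 0.0406, edgeR), to a level 29.8% above the controls. The fold change on that scale was 0.27 without control replicate 5. The call was lost without Sam68 siRNA replicate 2 (adjusted p = 0.146, edgeR), Sam68 siRNA replicate 3 (0.149), control replicate 1 (0.0821) or control replicate 5 (0.061).

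DDB1, the adaptor that DDB2 shares with ubiquitin ligases, stood at 488, 442 and 441 CPM with the Sam68 siRNA, against 376, 421 and 454 CPM in the controls. The groups overlapped (log2 fold change 0.13, adjusted p = 0.247, edgeR). Leaving out 1 library gave log2 fold changes from 0.06, without control replicate 1, to 0.20, without control replicate 5, and adjusted p by edgeR from 0.558, without Sam68 siRNA replicate 1, to 0.0435, without control replicate 5. XPC, the sensor of helix distortion, stood at 16.5, 17.6 and 19.5 CPM with the Sam68 siRNA, against 22.6, 21.5 and 20.5 CPM in the controls. It was lower without overlap and not called (log2 fold change -0.27, adjusted p = 0.0577, edgeR, and from 0.0363, without control replicate 5, to 0.19, without Sam68 siRNA replicate 1).

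Among the genes that open and cut the DNA, ERCC4 fell. It encodes XPF, the nuclease that cuts on the upstream side of the lesion together with ERCC1, and holds the ACTGATT sites printed above. ERCC4 (ENSG00000175595, chr16:13920154-13952348, plus strand) stood at 12.5, 11.3 and 12.5 CPM in Sam68 siRNA libraries 1, 2 and 3, against 15.7, 15.6 and 14.6 CPM in controls 1, 3 and 5. All Sam68 siRNA libraries lay below all controls (log2 fold change -0.34, SE 0.10, adjusted p = 0.0292, edgeR), on 195 to 263 counts per library. The call was kept without control replicate 5 and lost without any other library: leaving out Sam68 siRNA replicate 1, 2 or 3 gave an adjusted p by edgeR of 0.0653, 0.12 or 0.0739, and leaving out control 1 or 3 gave 0.0728 or 0.0843. The authors' deposited table gives ERCC4 an FDR of 0.0535.

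ERCC5, or XPG, the nuclease for the other side, stood at 52.8, 58.2 and 55.2 CPM with the Sam68 siRNA, against 64.6, 61.2 and 64.9 CPM in the controls. It was lower without overlap and not called (log2 fold change -0.20, adjusted p = 0.061, edgeR). BIVM, on the same strand, overlaps ERCC5 and has 38.0% as many counts. ERCC6, or CSB, which starts transcription-coupled repair, stood at 31.7, 27.8 and 31.0 CPM with the Sam68 siRNA, against 33.3, 33.2 and 34.6 CPM in the controls. It too was lower without overlap and not called (log2 fold change -0.16). ERCC1, the helicases ERCC2 and ERCC3 of the TFIIH complex and the damage verifier XPA overlapped between groups, with log2 fold changes between -0.09 and 0.01. XPA ranged from 7.80 to 11.5 CPM over the Sam68 siRNA libraries and from 8.42 to 10.8 CPM over the controls.

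In end joining, LIG4 fell. It encodes the ligase that seals double-strand breaks, held by the XRCC4 protein. LIG4 (ENSG00000174405, chr13:108207439-108218368, minus strand) stood at 22.9, 19.6 and 20.8 CPM in Sam68 siRNA libraries 1, 2 and 3, against 28.0, 24.3 and 26.6 CPM in controls 1, 3 and 5. No Sam68 siRNA library reached the lowest control (log2 fold change -0.31, SE 0.09, adjusted p = 0.031, edgeR). The call was lost without Sam68 siRNA replicate 2 (adjusted p = 0.127, edgeR), Sam68 siRNA replicate 3 (0.103) or control replicate 1 (0.0848). The authors' deposited table gives LIG4 an FDR of 0.0513. XRCC4 averaged 14.9 ± 1.11 CPM with the Sam68 siRNA and 15.1 ± 0.960 CPM in the controls (SD, n = 3 each). TMEM167A, which overlaps it on the other strand, has 1070% as many counts and fell (log2 fold change -0.26, adjusted p = 0.00665, edgeR). NHEJ1, or XLF, which aligns the ends, averaged 11.4 ± 0.841 CPM with the Sam68 siRNA and 9.80 ± 0.922 CPM in the controls (SD, n = 3 each). It was higher without overlap and not called (log2 fold change 0.22, adjusted p = 0.206, edgeR).

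The Ku subunits, which encircle the broken end, were the most abundant of the 34 transcripts per length. XRCC6 averaged 678 ± 12.6 TPM with the Sam68 siRNA and 634 ± 55.2 TPM in the controls, and XRCC5 averaged 337 ± 11.4 TPM with the Sam68 siRNA and 325 ± 33.5 TPM in the controls (SD, n = 3 each). Neither was called (log2 fold changes 0.09 and 0.05). Processed pseudogenes of XRCC6 and of UNG are annotated and are not among the counted genes. APEX1 came next, with 279 ± 2.63 TPM with the Sam68 siRNA and 242 ± 12.4 TPM in the controls, then DDB1, with 231 ± 16.5 TPM with the Sam68 siRNA and 210.0 ± 14.8 TPM in the controls. PARP1 followed with 97.0 ± 2.57 TPM with the Sam68 siRNA and 82.3 ± 10.0 TPM in the controls, then UNG with 77.3 ± 3.28 TPM with the Sam68 siRNA and 62.1 ± 12.0 TPM in the controls. Of these neighbours, PARP1 and UNG alone had ranges of mean ± SD that met, and only in the controls. At the low end stood NEIL1, then NEIL3 and ERCC4, the last at 4.52 ± 0.331 TPM with the Sam68 siRNA and 5.69 ± 0.452 TPM in the controls.

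PRKDC, the catalytic subunit of the DNA-dependent kinase that Ku recruits, was uneven within a group. It stood at 347, 232 and 235 CPM in Sam68 siRNA libraries 1, 2 and 3, against 257, 300.4 and 295 CPM in controls 1, 3 and 5. Sam68 siRNA replicate 1 was the highest of all 6 libraries, and replicates 2 and 3 the lowest. The log2 fold change was -0.07 (SE 0.17, adjusted p = 0.833, edgeR), and without Sam68 siRNA replicate 1 it was -0.28 (adjusted p = 0.0407, edgeR). No other library left out gave PRKDC a call (adjusted p up to 0.956, edgeR).

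**Figure D3:**
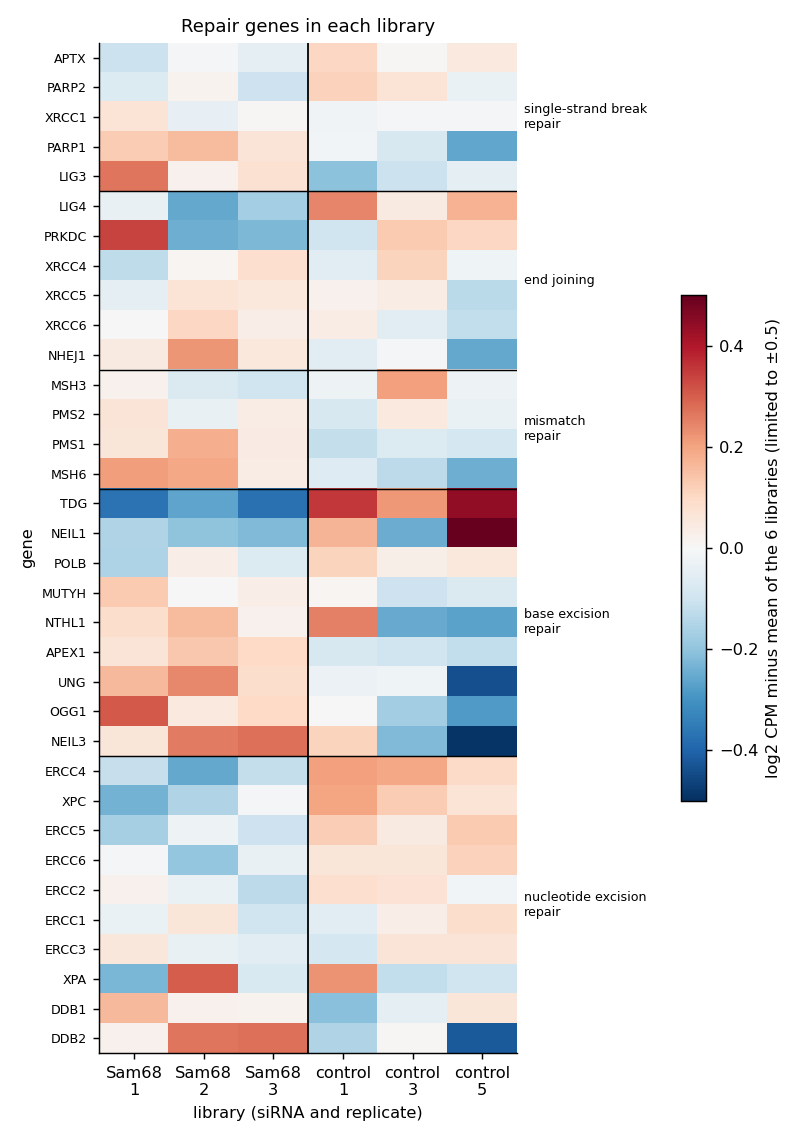
Colour gives log2 CPM minus the mean of the 6 libraries for each of the 34 genes (rows, by pathway) in each library (columns, Sam68 siRNA left of control siRNA). Control replicate 5 is the lowest library for 11 of the 34 genes, among them UNG, NEIL3 and DDB2, and PRKDC is high in Sam68 siRNA replicate 1.

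Control replicate 5 was the lowest of the 6 libraries for 11 of the 34 repair genes (32.4%), where it was lowest for 23.3% of all tested genes and for 22 of the 24 proliferation genes. By pathway these were 5 of 9 base excision, 3 of 6 end-joining, 1 of 4 mismatch, 1 of 5 single-strand break and 1 of 10 nucleotide excision repair genes. Without control replicate 5, 4 repair genes again rose, of which MSH6 and APEX1 were among the 4 that rose with all libraries, and LIG3 and DDB1 were not. In that fit 4 fell, the same 3 and XPC. Calls over all tested genes also change in number with the library left out, so these counts are not read as particular to repair genes. The part of the proliferation genes' level and of the mitochondrial share in these results was not tested.

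Genes whose products work as a pair, or on related substrates, were compared as a ratio of TPM values within each library. These 10 pairs were chosen after their values were seen, and an exact two-sided permutation test of 3 against 3 libraries cannot give a p below 0.1. The ratio of UNG to TDG was 3.52, 3.45 and 3.35 in Sam68 siRNA libraries 1, 2 and 3, against 1.85, 2.05 and 1.30 in controls 1, 3 and 5. It was 2.02-fold higher with the Sam68 siRNA (exact permutation p = 0.1, 0.167 adjusted over the 10 pairs). PARP1 to PARP2 stood at 2.62, 2.51 and 2.57 with the Sam68 siRNA, against 2.08, 2.05 and 1.95 in the controls. MSH6 to MSH3 stood at 1.11, 1.18 and 1.07 with the Sam68 siRNA, against 0.95, 0.769 and 0.838 in the controls. Per length, MSH6 was thus the more abundant in each Sam68 siRNA library and MSH3 in each control. That order depends on the lengths used, and other genes overlap both MSH6 and MSH3. In CPM, which is not scaled to length, MSH6 lay above MSH3 in every library. The lowest MSH6 level was 50.6 CPM, in control replicate 5, and the highest MSH3 level 39.4 CPM, in control replicate 3.

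LIG3 to XRCC1 was higher without overlap, at 0.383, 0.347 and 0.350 with the Sam68 siRNA, against 0.291, 0.311 and 0.323 in the controls. ERCC4 to ERCC1 was lower without overlap, at 0.127, 0.107 and 0.132 with the Sam68 siRNA, against 0.161, 0.151 and 0.135 in the controls. So was PMS2 to PMS1, at 1.31, 1.12 and 1.30 with the Sam68 siRNA, against 1.34, 1.42 and 1.36 in the controls. All 6 pairs without overlap had the same exact permutation p, the smallest possible. The ratios of LIG4 to XRCC4, XRCC6 to XRCC5, DDB2 to DDB1 and ERCC2 to ERCC3 overlapped between groups, with exact permutation p between 0.2 and 0.6. The Ku ratio differed by 0.04 on the log2 scale.

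**Figure D4:**
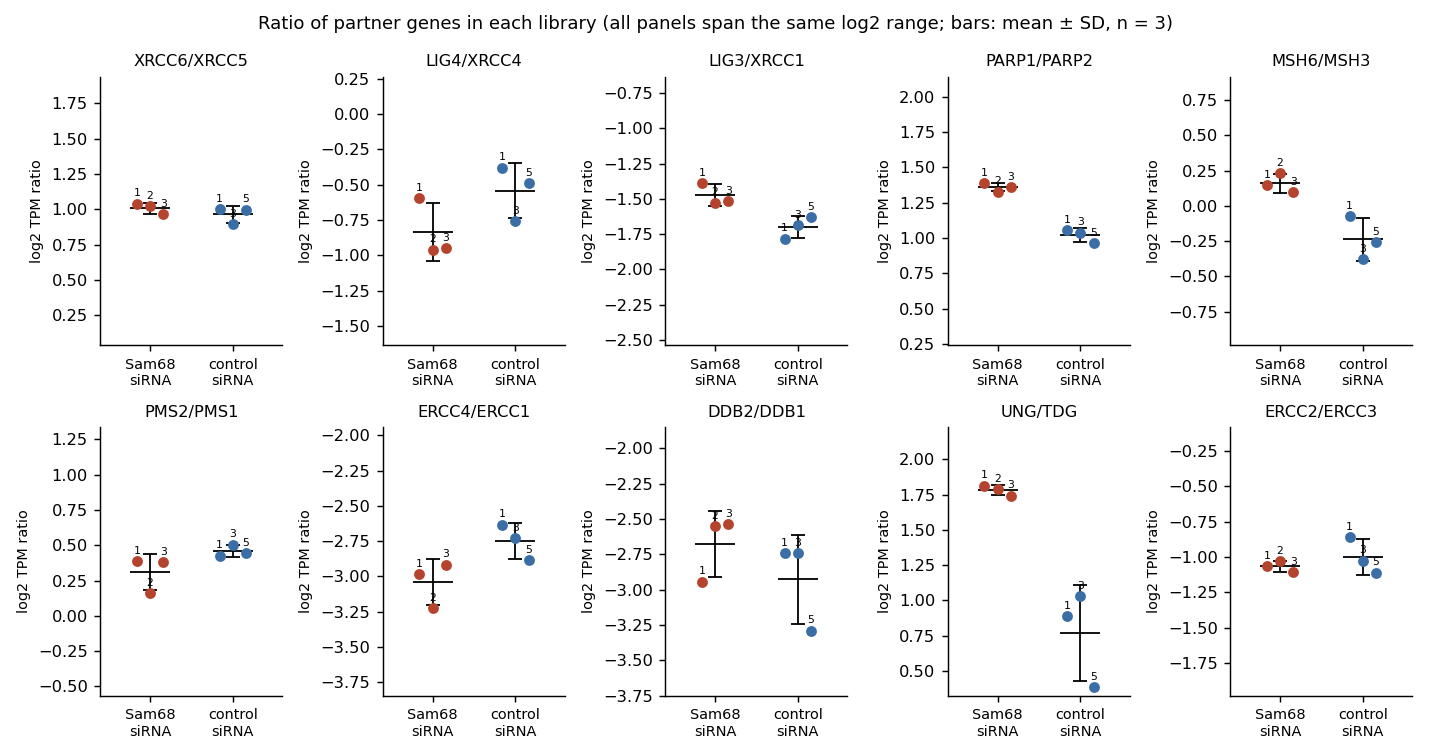
Log2 ratio of TPM values (vertical axis, the same log2 span in every panel) of 10 gene pairs in each library, Sam68 siRNA on the left and control siRNA on the right; numbers are replicate numbers and black bars mean ± SD (n = 3). UNG/TDG shows the widest gap between groups. The 6 of 10 pairs that do not overlap cannot be set against a background, because the pairs were chosen after their values were seen.

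A further list of 50 genes came from general knowledge of the same pathways. It was chosen with earlier results of these data known, so it is not an independent check. These genes had 6 rises and 1 fall (14.0% called, where 19.1% of all tested genes were), with a median log2 fold change of 0.10. Over all tested genes 9.33% rose and 9.76% fell. Of 9 mismatch repair genes 3 rose (33.3%). The exonuclease EXO1 stood at 22.5, 24.2 and 25.2 CPM with the Sam68 siRNA, against 16.9, 17.1 and 13.4 CPM in the controls (log2 fold change 0.60, adjusted p = 0.00263, edgeR). The polymerase delta subunits POLD3 and POLD2, which are shared with replication, had log2 fold changes of 0.54 and 0.20. Of 11 base excision repair genes 2 rose, both shared with replication, the polymerase delta catalytic subunit POLD1 (log2 fold change 0.43) and the ligase LIG1 (log2 fold change 0.40). In end joining 1 of 7 rose, PAXX, a relative of XRCC4 that binds Ku, at 26.3 ± 0.388 CPM with the Sam68 siRNA and 19.1 ± 1.41 CPM in the controls (SD, n = 3 each, log2 fold change 0.46, adjusted p = 0.00295, edgeR). Of 5 single-strand break repair genes 0 passed edgeR's test, 1 had an unadjusted p below 0.05, and the list's median log2 fold change was 0.19. In nucleotide excision repair 0 of 20 rose and 1 fell, GTF2H5, the small subunit of TFIIH, at 23.6, 25.5 and 24.2 CPM with the Sam68 siRNA, against 37.5, 31.9 and 34.1 CPM in the controls (log2 fold change -0.50, adjusted p = 0.00227, edgeR). The median log2 fold change of these 20 was 0.02, with 12 above 0 and 8 below, where that of the 10 described above was -0.07. Control replicate 5 was the lowest library for 22 of these 50 genes. Without it 7 rose and 1 fell, and without control replicate 1, 12 rose and 1 fell. The number of calls over all tested genes also changed with the library left out. These counts are therefore not read as a result about the repair genes.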

How the data were processed

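Poly(A) RNA was sequenced from 3 Sam68 siRNA and 3 control siRNA libraries of HO-1-N-1 cells. The authors deposited 1 table with counts per gene and library, and RPKM and TPM values made from them, per the file headers; RPKM was not used. The same table, as deposited, has a signal headed CPM whose columns sum to different totals and which was not used. The authors' deposited comparison gives a fold change, a log2 fold change and p-values with FDR per gene, per the file headers; its test is not named, and its column of group means was not used. The submitters' processing notes name the build hg38; no source used here gives the aligner, the counter or the strand setting.

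Counts were tested with edgeR 4.0.16 in R 4.3.3 (filterByExpr with minimum count 10 and minimum total 15, TMM scaling, robust quasi-likelihood F-test, Benjamini-Hochberg adjustment over 12351 genes, threshold 0.05). "Rose" and "fell" are used of called genes only. CPM in the text was computed from the counts and the TMM-scaled library sizes, and the fit was checked on simulated data. Partner ratios used the deposited TPM. Libraries of a group differed beyond sampling noise. Chi-square per degree of freedom lay between 3.02 and 6.99 for pairs of Sam68 siRNA libraries and was 6.4 for controls 1 and 3. For control 5 it was 39.7 against control 1 and 33.4 against control 3. The mitochondrial share of control replicate 5 has a 95% Wilson interval of 2.26% to 2.28%, which covers counting error only.

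The members, gene lists and tests were chosen with earlier results of these data known. All 34 members were to be accounted for, called members with every library, and of the further repair genes those called, at most 3 per pathway by smallest p. Alternatives were RLE scaling, DESeq2 1.42.0, looser and stricter filters, estimation that is not robust, a block for the replicate number, leaving out each library, and limma 3.58.1 on log2 TPM with a pseudocount of 1 or 0.1 at a mean of at least 1 TPM. Transcripts were the GENCODE 29 principal isoforms, with 3′ UTRs of at least 50 bases in the background. Python 3.11.15 was used. Some markers and overlapping genes are not reported here.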

Additional observations from a re-analysis of the deposited data

How the results depend on the processing

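With all libraries 1152 genes rose and 1206 fell, among them 4 and 3 of the repair genes. Leaving out 1 library gave between 533 and 1272 rises and between 579 and 1394 falls over all genes, between 0 and 5 rises and between 1 and 4 falls among the 34, and between 4 and 12 rises among the 50 further repair genes (6 with all libraries). The lowest counts among the 34, 0 rises and 1 fall, came without Sam68 siRNA replicate 2. DESeq2 gave 1 fall among the 34, with 1047 rises and 1056 falls over all genes. Limma-trend on log2(TPM + 1) or log2(TPM + 0.1) gave 0 rises and 1 fall each among the 34. Over all genes these fits gave 868 or 860 rises and 835 or 827 falls. The cause of these differences was not tested. Without robust estimation DDB2 was not called. TDG was called under all 14 alternatives.

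With the replicate number as a block, 503 genes rose and 543 fell, and among the 34 genes 0 rose and 1, TDG, fell. That fit leaves 1 residual degree of freedom, the groups share the numbers 1 and 3 only, and the deviations of same-numbered libraries correlated at -0.066 and 0.077, so the numbers are not shown to pair the libraries. Under the block 4 log2 fold changes near 0 changed sign, to -0.0284 for XRCC5, 0.0411 for PRKDC, 0.0090 for ERCC3 and -0.2155 for XPA.

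Leaving out 1 library also moved small values across 0: log2 fold changes ranged from -0.0051 to 0.0435 for XRCC1, -0.0788 to 0.0353 for XRCC4, -0.0052 to 0.0850 for XRCC5, -0.2819 to 0.0301 for PRKDC and -0.1723 to 0.1373 for XPA. Of the recomputed values of the 34 genes, 410 kept direction and call, 44 lost the call, 9 gained one and 13 changed sign. The fewest counts per library were those of NEIL3 (47 to 92) and NEIL1 (68 to 126); whether depth limits their calls was not tested.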
